A study of Mus musculus with 12 samples.

Results

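The interferon response genes described here are 44 mouse genes: genes that type I interferon induces, the factors that switch them on and the receptors that start the signal. They were given by name, and 42 of the 44 were measured, out of 18193 genes tested. Each gene was read from 1 probe set, the one with the highest mean over the 12 arrays among those assigned to that gene alone. Isg15 and Ifi44 had no probe set with their symbol alone and were not analysed here.

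The RNA came from yolk sacs, the membrane that feeds the early embryo and forms its first blood cells and vessels. The 4 groups were Hypb knockout (Hypb-/-) at E10.5 (E, embryonic day), wild type (Hypb+/+) at E10.5, knockout at E9.0 and wild type at E9.0, with 3 arrays each. All mice had the strain label 129Sv/C57BL/6. The sample descriptions say that 4 yolk sacs of a genotype were pooled as a sample, while the extraction protocol speaks of RNA from individual yolk sacs with 4 per group, and how these statements fit together is not given in the sources used here. Each array is treated below as 1 pool. The protein of Hypb (current symbol Setd2) trimethylates lysine 36 of histone H3 behind the elongating polymerase. The labels do not say how the allele was made, and they do not give each strain's share of the genome by genotype.

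Type I interferons are secreted proteins that bind a receptor made of IFNAR1 and IFNAR2, whose kinases JAK1 and TYK2 activate STAT proteins. Activated STAT proteins with IRF9 bind a DNA element known as the interferon-stimulated response element and switch on a large set of target genes, many of which block viruses. Viral or the cell's own double-stranded RNA, read by sensors such as MDA5 and RIG-I, and DNA, read by cGAS, start the making of interferon, and IRF1 and IRF7 can switch on part of the same target genes.

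The response element holds a repeat that can be written as GAAA, NN and again GAAA, where N is any base. The promoter windows of the 5 members with the lowest p at E10.5 among those with this repeat are shown because results below turn on these genes. The choice is among members with a RefSeq window, and Usp18 and Parp14, with lower p than Ifih1 and Gbp2, matched none. Each window runs from 250 bases before to 50 bases after the RefSeq start site in build GRCm38.p6, is written 5′ to 3′ on the gene's strand, and has the repeat in capitals, read as TTTC, NN and TTTC where it lies on the opposite strand. Ifit3 lies at chr19:34583279-34583578 on the plus strand, Gbp3 at chr3:142559794-142560093 on the plus strand, Ifit1 at chr19:34640639-34640938 on the plus strand, Ifih1 at chr2:62646206-62646505 on the minus strand and Gbp2 at chr3:142620413-142620712 on the plus strand.
Ifit3: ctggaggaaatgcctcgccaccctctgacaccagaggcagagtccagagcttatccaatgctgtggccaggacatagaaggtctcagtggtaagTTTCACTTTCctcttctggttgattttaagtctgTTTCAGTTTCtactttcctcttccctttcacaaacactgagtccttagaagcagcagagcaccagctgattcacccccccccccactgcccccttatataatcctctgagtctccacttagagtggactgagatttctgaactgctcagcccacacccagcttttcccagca
Gbp3: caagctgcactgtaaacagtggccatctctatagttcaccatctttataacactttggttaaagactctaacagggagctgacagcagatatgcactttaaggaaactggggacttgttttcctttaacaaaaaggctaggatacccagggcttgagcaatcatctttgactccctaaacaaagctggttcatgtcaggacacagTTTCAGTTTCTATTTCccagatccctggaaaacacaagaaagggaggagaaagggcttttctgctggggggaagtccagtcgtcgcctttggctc
Ifit1: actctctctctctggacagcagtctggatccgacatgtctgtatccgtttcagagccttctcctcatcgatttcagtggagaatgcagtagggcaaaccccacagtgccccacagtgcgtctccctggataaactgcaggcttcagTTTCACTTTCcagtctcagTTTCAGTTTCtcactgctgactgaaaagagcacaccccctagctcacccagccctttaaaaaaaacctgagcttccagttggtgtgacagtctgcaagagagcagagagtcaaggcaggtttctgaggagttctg
Ifih1: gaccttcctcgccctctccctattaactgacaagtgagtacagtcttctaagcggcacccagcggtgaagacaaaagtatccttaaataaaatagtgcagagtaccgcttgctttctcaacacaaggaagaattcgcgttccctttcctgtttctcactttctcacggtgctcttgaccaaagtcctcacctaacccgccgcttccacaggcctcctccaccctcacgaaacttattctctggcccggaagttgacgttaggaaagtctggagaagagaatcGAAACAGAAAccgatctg
Gbp2: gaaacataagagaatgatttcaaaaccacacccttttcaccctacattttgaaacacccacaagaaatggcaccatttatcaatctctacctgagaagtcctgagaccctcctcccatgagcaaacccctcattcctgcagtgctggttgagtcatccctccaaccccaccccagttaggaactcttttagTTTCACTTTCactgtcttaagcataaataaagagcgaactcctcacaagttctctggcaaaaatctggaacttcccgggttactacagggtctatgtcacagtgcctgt

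Of the 44 members, 35 matched a RefSeq promoter by symbol. The repeat of GAAA with 2 bases between, searched on both strands with overlapping matches counted, was present in a window of 15 of those 35 genes (42.9%), against 3.63% of the 14452 tested genes with a promoter and 3.99% of all 27025 genes in the table. It was found for 9 of the 18 matched members that rose at E10.5 (50%) and for 5 of the 15 matched and measured members that did not pass the test there (33.3%). The element of STAT dimers, TTC and GAA with NNN between them, was found for 5 of those 18 (27.8%) and 7 of those 15 (46.7%), against 8.57% of tested genes. In Gbp3 the pair of matches overlap. These letter matches describe the windows and do not show binding.

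The deposited values are on a log2 scale, so that a difference of 1 is a doubling, and array medians over all probe sets lay between 5.27 and 5.34. The Setd2 values of the genotypes did not overlap at either stage and were lower in the knockout (log2 change −0.83, adjusted p = 0.00294 at E10.5; −1.29, adjusted p = 0.00207 at E9.0). Hybridisation and labelling control probe sets set the third replicates apart: at E9.0 BioC exceeded BioB there by 0.15 (knockout) and 0.24 (wild type), while replicates 1 and 2 had a gap of 1.70 to 1.86. At E10.5 the 3′ to 5′ difference of the Dap control was 1.87 (knockout) and 1.85 (wild type) in replicate 3, against 1.23 to 1.44 in the others. Both genotypes are present in each such set, and values within them stand beside the results.

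At E10.5 the interferon response genes were higher in the knockout. Of the 42 measured members, 24 rose (57.1%) and 0 fell at a limma adjusted p below 0.05, where 4.12% of all genes rose and 3.16% fell. At an unadjusted p below 0.05, 29 members were higher and 1, Ifnar2, was lower (10.3% and 9.92% of all genes). Of the 24, 15 rose at least 2-fold (log2 change of 1 or more; 35.7% of members, against 0.934% of all genes). The 3 knockout arrays lay wholly above the 3 wild type arrays for 30 members (71.4%, against 11.5% of all genes) and wholly below them for Ifnar2 alone (11.3% of all genes). The median log2 change was 0.65 over the members and −0.013 over all genes, and 8 of the 20 largest rises among all genes were members. In bulk tissue, a change in the number of cells of a type and a change in RNA per cell cannot be told apart.

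**Figure D1:**
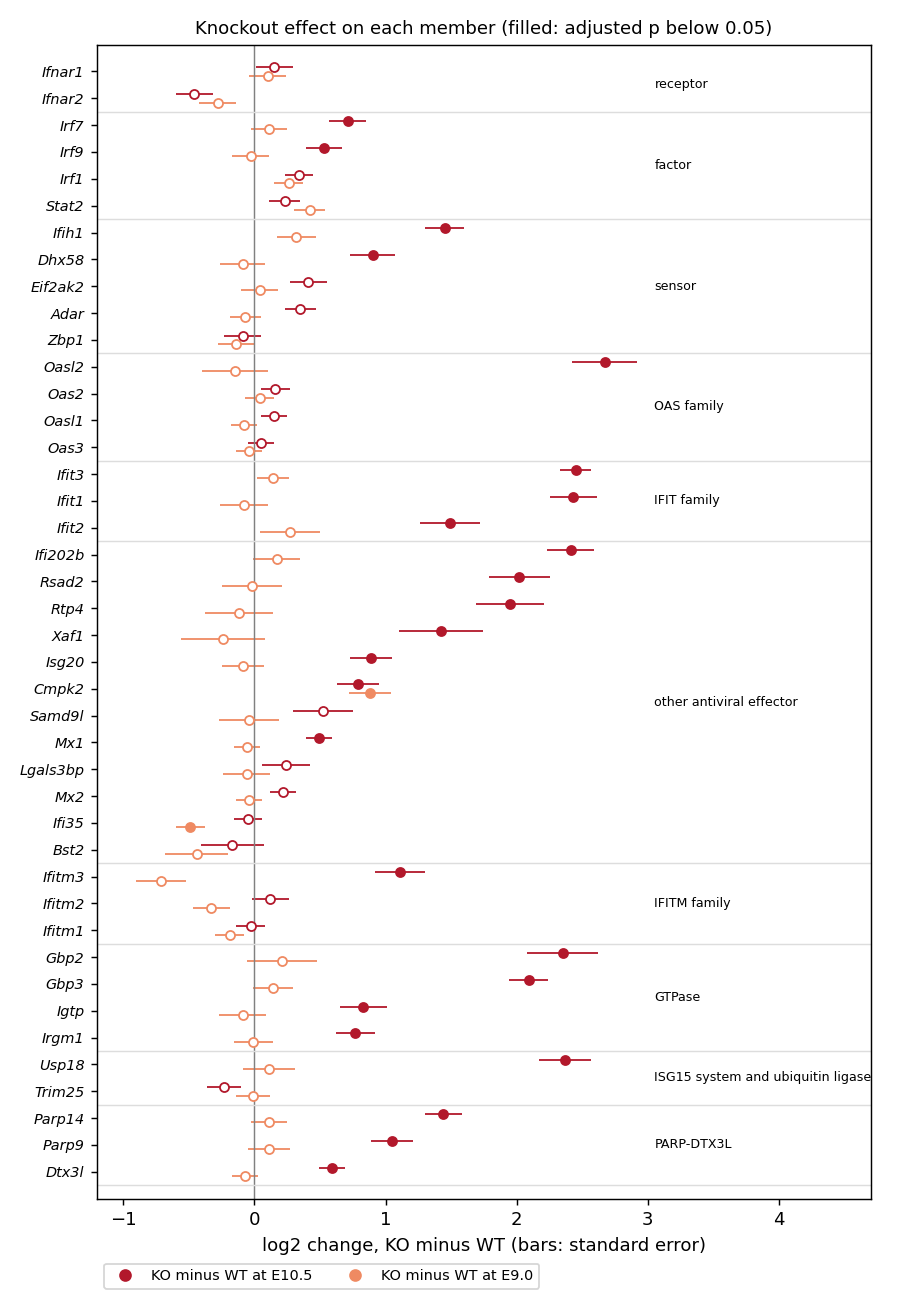
Log2 change from wild type to knockout (x axis, bars: standard error of the fit, n = 3 arrays per group) of each of the 42 measured members, grouped by role, at E10.5 (red) and E9.0 (orange); filled points have an adjusted p below 0.05. At E10.5 the points spread up to 2.67 and 24 are filled, while at E9.0 most lie near 0 and only Cmpk2 and Ifi35 are filled.

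The receptor chains did not pass the test at E10.5. Ifnar1, one chain of the receptor, read 8.59, 8.37 and 8.19 in the knockout, against 8.38, 8.38 and 7.95 in the wild type, and the groups overlapped. Ifnar2, the other chain, read 7.72, 7.71 and 8.05 in the knockout, against 8.22, 8.17 and 8.46 in the wild type, so that every knockout array was lower. Its log2 change was −0.46 ± 0.14 (SE), with an adjusted p of 0.0752, which moved to 0.00754 with the third replicates as a block, and its other 2 probe sets read −0.10 and −0.16.

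Among the factors, IRF7 and IRF9 RNA rose. Irf7, which amplifies interferon production, read 4.83, 4.44 and 5.11 in the knockout, against 4.14, 4.00 and 4.11 in the wild type (log2 change 0.71 ± 0.14 (SE), adjusted p = 0.00807). Irf9, the DNA-binding partner of the STAT proteins, read 7.33, 6.97 and 7.42 in the knockout, against 6.72, 6.55 and 6.87 in the wild type (0.53 ± 0.14, adjusted p = 0.0424). Neither gene's groups overlapped, but Irf9 lay close to the threshold and lost its call (no longer passed it) in 5 of the 6 fits that leave out 1 array, where its adjusted p reached 0.169. Stat2, the STAT protein of the same complex, read 5.59, 5.74 and 5.90 in the knockout, against 5.43, 5.65 and 5.45 in the wild type, with overlapping arrays (0.23, adjusted p = 0.304). Irf1, a factor that also responds to interferon gamma, read 8.16, 7.86 and 8.10 in the knockout, against 7.80, 7.61 and 7.70 in the wild type, without overlap (0.34, adjusted p = 0.0812).

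Of the 5 sensors and RNA-acting enzymes, 2 rose. Ifih1, which encodes the double-stranded RNA sensor MDA5, read 7.74, 7.76 and 7.53 in the knockout, against 6.36, 6.28 and 6.04 in the wild type, a 2.73-fold rise (log2 change 1.45 ± 0.15 (SE), adjusted p = 0.000149). The wild type arrays were all more than 1 log2 unit below the knockout arrays. Dhx58, which encodes the related protein LGP2, rose by 0.90 on the log2 scale (adjusted p = 0.0063), although 2 dimmer probe sets of the gene read 0.13 and −0.16. Eif2ak2, which encodes the RNA-activated kinase PKR, and Adar, the enzyme that converts adenosine to inosine in double-stranded RNA, were higher on every knockout array without passing the test (0.41, adjusted p = 0.0943, and 0.35, adjusted p = 0.0969). The dimmer probe sets of these genes read −0.06 and −0.02 for Eif2ak2 and 0.35 and 0.40 for Adar. Zbp1, a sensor of left-handed nucleic acid, did not pass either.

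Of the 4 members from the 2′-5′ oligoadenylate synthetase family, 1 rose. Oasl2, a member of the family with a ubiquitin-like tail, read 6.67, 5.98 and 6.59 in the knockout, against 4.39, 3.53 and 3.30 in the wild type (log2 change 2.67 ± 0.25 (SE), adjusted p = 7.92e-05). This was the highest measured log2 change of any member at E10.5. Its wild type mean of 3.74 lies below the lower quartile of all genes (4.32), where an array value need not stand above background, and the wild type arrays differed among themselves by about 1 log2 unit. Oas2, Oas3 and Oasl1, which were singled out after their values were seen, had log2 changes of 0.16, 0.05 and 0.15 and did not pass the test. Outside the members, Oas1a of the same family rose by 1.01 (adjusted p = 0.00667) and Oas1b read 0.01, both also named after their values were seen. Oasl1 and Oasl2 are next to each other in the gene order of the RefSeq annotation.

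All 3 measured IFIT genes, of a family with proteins that bind foreign RNA, rose. Ifit3 read 8.10, 7.85 and 7.79 in the knockout, against 5.58, 5.42 and 5.39 in the wild type, a 5.46-fold rise (log2 change 2.45 ± 0.12 (SE), adjusted p = 7.7e-07). Ifit1 read 6.23, 5.78 and 6.38 in the knockout, against 3.86, 3.45 and 3.78 in the wild type (2.43 ± 0.18, adjusted p = 2.58e-05), where its mean of 3.70 was again below the lower quartile. Ifit2 read 8.17, 7.36 and 7.17 in the knockout, against 6.32, 5.90 and 6.02 in the wild type, a 2.8-fold rise (1.49 ± 0.23, adjusted p = 0.00215). Each gene's knockout arrays lay above all of its wild type arrays, and Ifit3 had the lowest p of all genes tested. Ifit2 and Ifit3 are adjacent genes, and Ifit1 lies 3 genes from Ifit3.

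Of the 12 other antiviral effectors measured, 7 rose. Rsad2 encodes viperin, an enzyme that makes a chain-terminating nucleotide, and read 10.55, 9.52 and 9.72 in the knockout, against 8.12, 7.78 and 7.83 in the wild type (log2 change 2.02 ± 0.23 (SE), adjusted p = 0.000304). Its other probe sets read 1.32 and 1.63. Cmpk2, a nucleotide kinase whose gene is adjacent to Rsad2, read 7.93, 7.50 and 7.63 in the knockout, against 6.93, 6.82 and 6.93 in the wild type (0.79 ± 0.16, adjusted p = 0.00994). Both genes were higher on all 3 knockout arrays, and replicate 1 of the knockout was the highest for both.

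Rtp4, which encodes a receptor transporter protein that interferon induces, read 8.70, 8.52 and 8.23 in the knockout, against 6.93, 6.71 and 5.97 in the wild type (log2 change 1.95 ± 0.26 (SE), adjusted p = 0.00071). A second, dimmer probe set of Rtp4 read 0.12. Ifi202b, of the DNA-binding p200 family, read 6.90, 6.31 and 7.08 in the knockout, against 4.27, 4.54 and 4.25 in the wild type, a 5.31-fold rise (2.41 ± 0.18, adjusted p = 3.04e-05). Its probe set carries the suffix that Affymetrix gives where probes may match several transcripts, so related p200 genes may add to the value. Xaf1, which encodes a partner of the apoptosis inhibitor XIAP, read 6.23, 5.81 and 7.38 in the knockout, against 5.50, 4.52 and 5.13 in the wild type (1.42 ± 0.32, adjusted p = 0.0195). The second probe set of Xaf1, about as bright (mean 4.95, against 4.97), read 0.72, less than a 2-fold rise. The 3 genes had no overlap between groups, but Xaf1 was the most variable: its call was lost without replicate 2 or without replicate 3 of the wild type, where the adjusted p reached 0.0914. Isg20, an exonuclease, rose by 0.89 (adjusted p = 0.00542) and Mx1, a dynamin-like GTPase that is inactive in most laboratory strains, by 0.49 (adjusted p = 0.0105).

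The 3 IFITM genes encode membrane proteins that hinder virus entry, and 1 of them rose. Ifitm3 read 10.46, 10.12 and 10.65 in the knockout, against 9.30, 9.11 and 9.50 in the wild type, a 2.15-fold rise (log2 change 1.11 ± 0.19 (SE), adjusted p = 0.00419). Ifitm2 and Ifitm1, singled out after their values were seen, changed by 0.12 and −0.03 with overlapping arrays, although Ifitm1 is adjacent to both Ifitm3 and Ifitm2 in the gene order.

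All 4 GTPases of cell-autonomous defence rose. The guanylate-binding protein gene Gbp2 read 6.97, 5.53 and 6.14 in the knockout, against 3.59, 4.00 and 3.99 in the wild type (log2 change 2.35 ± 0.27 (SE), adjusted p = 0.000303), where its mean of 3.86 was below the lower quartile of all genes. The probe set used for Gbp2 carries a suffix for probes that may match several transcripts, as do those of Ifi35 and Trim25, so related genes may add to these values. The second probe set of Gbp2, without that suffix, read 2.03. Gbp3, with 1 gene between it and Gbp2, read 7.02, 6.82 and 6.39 in the knockout, against 4.83, 4.53 and 4.59 in the wild type, a 4.27-fold rise (2.09 ± 0.15, adjusted p = 2.58e-05). In both genes the lowest knockout array was more than 1 log2 unit above the highest wild type array. The immunity-related GTPases Irgm1 and Igtp rose by 0.77 (adjusted p = 0.00728) and 0.83 (adjusted p = 0.0161). Igtp lost its call without replicate 1 of the knockout, and without replicate 2 or 3 of the wild type (adjusted p up to 0.0727).

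Usp18, which removes ISG15 from proteins and dampens signalling at the receptor, read 8.06, 7.68 and 8.05 in the knockout, against 5.83, 5.20 and 5.65 in the wild type, a 5.17-fold rise (log2 change 2.37 ± 0.20 (SE), adjusted p = 4.37e-05). Trim25, a ubiquitin ligase that acts on RIG-I, did not pass the test. Among the ADP-ribosyltransferase group, Parp14 read 6.11, 5.63 and 5.63 in the knockout, against 4.47, 4.31 and 4.27 in the wild type (1.44 ± 0.14, adjusted p = 0.000105). Parp9 read 7.52, 7.12 and 7.40 in the knockout, against 6.33, 6.38 and 6.18 in the wild type (1.05 ± 0.16, adjusted p = 0.00239). Dtx3l, the ubiquitin ligase that pairs with PARP9, rose by 0.59 (adjusted p = 0.00456). These 3 genes are adjacent in the gene order, and all 3 rose, with no overlap between groups. The dimmer second probe sets of Parp14 and Dtx3l read 0.10 and 0.39 and were not past the threshold.

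The 18 measured members that did not pass the test at E10.5 had log2 changes between −0.46 (Ifnar2) and 0.52 (Samd9l). Besides Ifnar1, Ifnar2, Stat2, Irf1, Eif2ak2, Adar, Zbp1, Oasl1, Oas2, Oas3, Ifitm1, Ifitm2 and Trim25, they were Mx2, Bst2, Ifi35, Samd9l and Lgals3bp. With the third replicates as a block Samd9l passed (adjusted p = 0.0404), as did Ifnar2. Over all 24 rises, 21 kept their call in each of the 6 fits that leave out 1 array of these groups. With replicates 1 and 2 alone 20 of the 24 passed, and the median change over the 42 members was 0.56 there and 0.70 in replicate 3.

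At E9.0 most of the same genes did not differ detectably between the genotypes. Of 42 members 1 rose (2.38%, against 0.55% of all genes) and 1 fell (2.38%, against 0.632% of all genes), and the median log2 change was −0.04 (−0.007 over all genes). Cmpk2 read 6.74, 6.58 and 6.79 in the knockout, against 5.59, 6.22 and 5.65 in the wild type (log2 change 0.88 ± 0.16 (SE), adjusted p = 0.0235). Ifi35, which encodes a leucine zipper protein that interferon induces, read 7.84, 7.98 and 7.75 in the knockout, against 8.46, 8.22 and 8.36 in the wild type (−0.49 ± 0.11, adjusted p = 0.0488). Neither gene's groups overlapped, but both calls were fragile: Ifi35 lost its call in all 6 fits that leave out 1 array and Cmpk2 in 4 of 6 (adjusted p up to 0.185 and 0.115), neither passed with replicates 1 and 2 alone, and the second probe set of Cmpk2 read 0.21. The other probe sets of Ifi35 read −0.39 and −0.45, the second with an adjusted p of 0.0459 in the fit of every probe set.

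At E9.0 the genotypes' arrays lay apart for 4 members that were higher (9.52%, against 8.56% of all genes) and 5 that were lower (11.9%, against 9.42%), shares close to those of all genes. The lower ones were Ifi35, Xaf1 and the 3 IFITM genes. Ifitm3 read 6.46, 7.23 and 6.91 in the knockout, against 7.54, 7.45 and 7.75 in the wild type, with a log2 change of −0.71 ± 0.19 (SE) that did not pass (adjusted p = 0.0986). The higher ones were Cmpk2, Stat2, Irf1 and Irf7.

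The receptor and factor genes also gave no call at E9.0. Ifnar1 read 8.65, 8.51 and 8.62 in the knockout, against 8.51, 8.68 and 8.30 in the wild type, and Ifnar2 read 7.07, 7.33 and 7.47 in the knockout, against 7.46, 7.46 and 7.78 in the wild type. Stat2 read 5.47, 5.68 and 5.28 in the knockout, against 5.01, 5.07 and 5.10 in the wild type (log2 change 0.42, adjusted p = 0.127). Its other probe set, about as bright (mean 5.35, against 5.45), read 0.02. Knockout and wild type overlapped for the receptor chains and not for Stat2. Irf1 read 7.41, 7.57 and 7.42 in the knockout, against 7.09, 7.21 and 7.31 in the wild type. Irf7 read 4.03, 4.17 and 4.09 in the knockout, against 4.01, 3.95 and 3.99 in the wild type. Irf9 read 6.25, 6.17 and 6.15 in the knockout, against 6.05, 6.12 and 6.48 in the wild type. The changes of Irf1, Irf7 and Irf9 lay between −0.03 and 0.26, and Irf9 overlapped.

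The signed difference, the E10.5 knockout effect minus the E9.0 effect, was positive for 11 members by its own test (26.2%, against 0.104% of all genes). It was negative for 0 (0.0824% of all genes). At an unadjusted p below 0.05, 26 members had a positive and 0 a negative difference (4.71% and 3.59% of all genes). A positive difference need not be a larger effect: among the 26, Ifi35 went from −0.49 at E9.0 to −0.05 at E10.5, and Ifitm2 from −0.33 to 0.12. Only 34 genes of all 18193 passed the adjusted test of the difference, 19 of them with a positive difference, so that the 11 members were a large share of those 19. The 11 were Oasl2, Ifit1, Ifit3, Rsad2, Rtp4, Ifi202b, Ifitm3, Gbp2, Gbp3, Usp18 and Parp14, and their differences ran from 1.33 (Parp14) to 2.83 (Oasl2).

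For most of these genes the 6 arrays of E9.0 lay at 1 low level. In Oasl2, Ifit1, Ifi202b, Gbp2, Gbp3 and Parp14 both E9.0 group means lay below the lower quartile of all genes (4.32). An array value there need not stand above background, so a knockout effect on these genes at E9.0 could go unread. Ifit3 read 5.18, 5.21 and 4.99 in the knockout at E9.0, against 4.85, 4.94 and 5.17 in the wild type, and its difference between the effects was 2.31 ± 0.17 (SE, adjusted p = 8.87e-05). Ifit1 read 3.00, 3.37 and 2.93 in the knockout at E9.0, against 3.29, 2.95 and 3.29 in the wild type (difference 2.51 ± 0.25, adjusted p = 0.000997). Oasl2 read 3.10, 3.04 and 3.30 in the knockout at E9.0, against 3.48, 3.27 and 3.15 in the wild type (2.83 ± 0.35, adjusted p = 0.00467). These 3 genes overlapped between genotypes at E9.0 and not at E10.5. Gbp3 read 4.15, 4.29 and 4.13 in the knockout at E9.0, against 4.20, 3.92 and 4.04 in the wild type (1.96 ± 0.21, adjusted p = 0.00198). Ifi202b read 3.67, 3.53 and 3.70 in the knockout at E9.0, against 3.68, 3.53 and 3.18 in the wild type (2.24 ± 0.26, adjusted p = 0.00343). Usp18 read 4.61, 4.67 and 4.31 in the knockout at E9.0, against 4.13, 4.82 and 4.31 in the wild type (2.26 ± 0.28, adjusted p = 0.00467). These 6 genes, Oasl2, Ifit1, Ifit3, Ifi202b, Gbp3 and Usp18, kept the call in all 12 fits that leave out 1 array.

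Of the other 5, Ifitm3 kept the call in 10 of those 12 fits, Parp14 in 9, Rsad2 in 6, Rtp4 in 4 and Gbp2 in 2. In the limma fit of every probe set, Rsad2, Rtp4 and Gbp2 did not pass (adjusted p = 0.0616, 0.0828 and 0.0869). Rsad2 read 6.47, 6.99 and 6.80 in the knockout at E9.0, against 6.54, 6.81 and 6.97 in the wild type (difference 2.04, adjusted p = 0.0307). Rtp4 read 4.42, 4.93 and 4.22 in the knockout at E9.0, against 4.96, 4.69 and 4.28 in the wild type (2.07, adjusted p = 0.0437). Gbp2 read 3.59, 3.82 and 3.46 in the knockout at E9.0, against 3.32, 3.40 and 3.53 in the wild type (2.15, adjusted p = 0.0464). All 3 overlapped at E9.0. Parp14 read 4.42, 4.06 and 4.39 in the knockout at E9.0, against 4.14, 4.22 and 4.17 in the wild type (1.33, adjusted p = 0.0183). Ifitm3 had a difference of 1.82 (adjusted p = 0.0178) and was the 1 gene of the 11 whose arrays lay apart at both stages, lower in the knockout at E9.0 and higher at E10.5. With replicates 1 and 2 alone, 5 of the 11 passed: Ifit1, Ifit3, Rtp4, Ifi202b and Gbp3.

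The remaining 4 members with at least a 2-fold rise at E10.5, Ifih1, Ifit2, Xaf1 and Parp9, did not pass the test of the difference. Ifih1 read 6.01, 6.02 and 5.70 in the knockout at E9.0, against 5.32, 5.85 and 5.61 in the wild type (difference 1.13, adjusted p = 0.0509). Ifit2 read 6.78, 6.49 and 6.35 in the knockout at E9.0, against 6.01, 6.53 and 6.26 in the wild type (1.21, adjusted p = 0.201). Xaf1 read 4.09, 4.01 and 4.06 in the knockout at E9.0, against 4.50, 4.22 and 4.15 in the wild type (1.66, adjusted p = 0.225), which were all higher. Parp9 read 5.06, 5.43 and 5.23 in the knockout at E9.0, against 5.19, 4.77 and 5.44 in the wild type (0.94, adjusted p = 0.15). Cmpk2 was higher in the knockout at both stages, and its difference was −0.09 ± 0.22 (SE, adjusted p = 0.964).

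**Figure D2:**
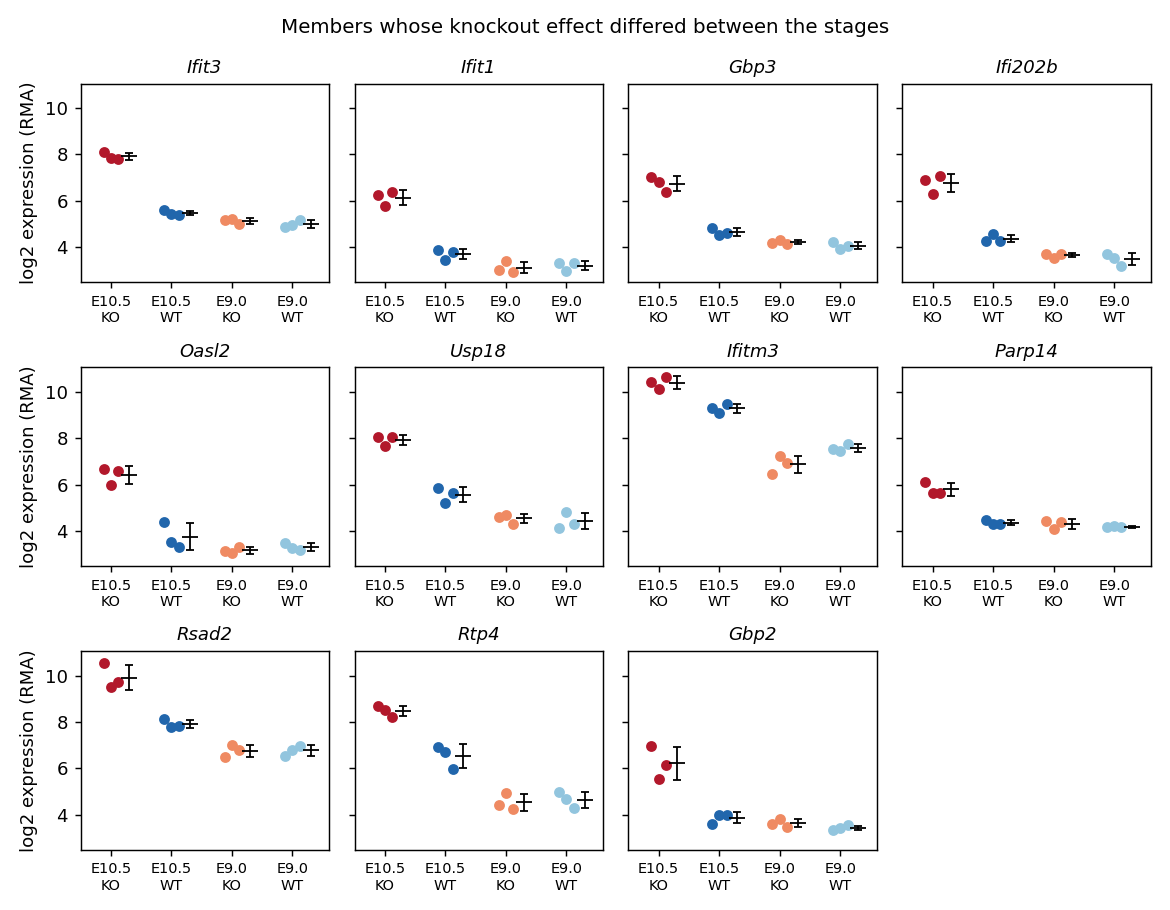
Log2 expression (y axis, RMA values) on each array of the 11 members whose knockout effect differed between the stages; points are arrays and crosses the mean with SD, n = 3 per group. In every panel the E10.5 knockout arrays lie above the others, and in Ifitm3 the E9.0 knockout arrays lie below the E9.0 wild type arrays.

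The members' levels rose between the stages in both genotypes. In the knockout, 33 of 42 members were higher at E10.5 than at E9.0 (78.6%, against 14.4% of all genes) and 1, Trim25, was lower (9.17% of all genes), with a median log2 change of 1.19 (0.030 over all genes). In the wild type, 22 were higher (52.4%, against 13.4% of all genes) and 3, Eif2ak2, Adar and Trim25, were lower (8.86% of all genes), with a median of 0.50 (0.030 over all genes). With replicates 1 and 2 alone the medians were 1.16 in the knockout, against 0.57 in the wild type. The mean over the 42 members was 7.20, 6.94 and 7.15 on the E10.5 knockout arrays, 6.29, 6.17 and 6.18 on the E10.5 wild type arrays, 5.66, 5.72 and 5.64 on the E9.0 knockout arrays and 5.69 on each E9.0 wild type array. The arrays thus formed 3 levels by this description: E10.5 knockout, E10.5 wild type, and both genotypes of E9.0 together.

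Some genes rose with stage in both genotypes and more in the knockout. Rtp4 rose 15.6-fold between the stages in the knockout and 3.71-fold in wild type yolk sacs, Ifitm3 11.7-fold in the knockout and 3.3-fold in wild type yolk sacs, and Usp18 10.6-fold in the knockout and 2.2-fold in wild type yolk sacs. Others rose in the knockout without passing the stage test in the wild type: Oasl2 by 3.27 on the log2 scale in the knockout, against 0.44 in the wild type, Ifit1 by 3.03 in the knockout, against 0.52 in the wild type, Gbp2 by 2.59 in the knockout, against 0.44 in the wild type, and Parp14 by 1.50 in the knockout, against 0.17 in the wild type. The gap between the stage changes is the same contrast as the difference tested above. A further set rose in both genotypes, with differences between the stage changes that did not pass: Ifitm1 by 1.44 in the knockout, against 1.28 in the wild type (difference 0.16 ± 0.16 (SE)), Bst2, the gene of the virus-tethering protein tetherin, by 1.46 in the knockout, against 1.19 in the wild type (0.27 ± 0.34), and Cmpk2 by 0.98 in the knockout, against 1.07 in the wild type. These stage examples were chosen after their values were seen. In the wild type the 3 falls were lost in 4 of 6 fits that leave out 1 array (adjusted p up to 0.115 for Eif2ak2, 0.16 for Adar and 0.0746 for Trim25). The wild type rises of Stat2, Irf9, Ifit3, Gbp3 and Irgm1 were also lost in some of these fits. Of the 25 stage calls in the wild type 17 were kept in every fit, against 31 of 34 in the knockout.

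**Figure D3:**
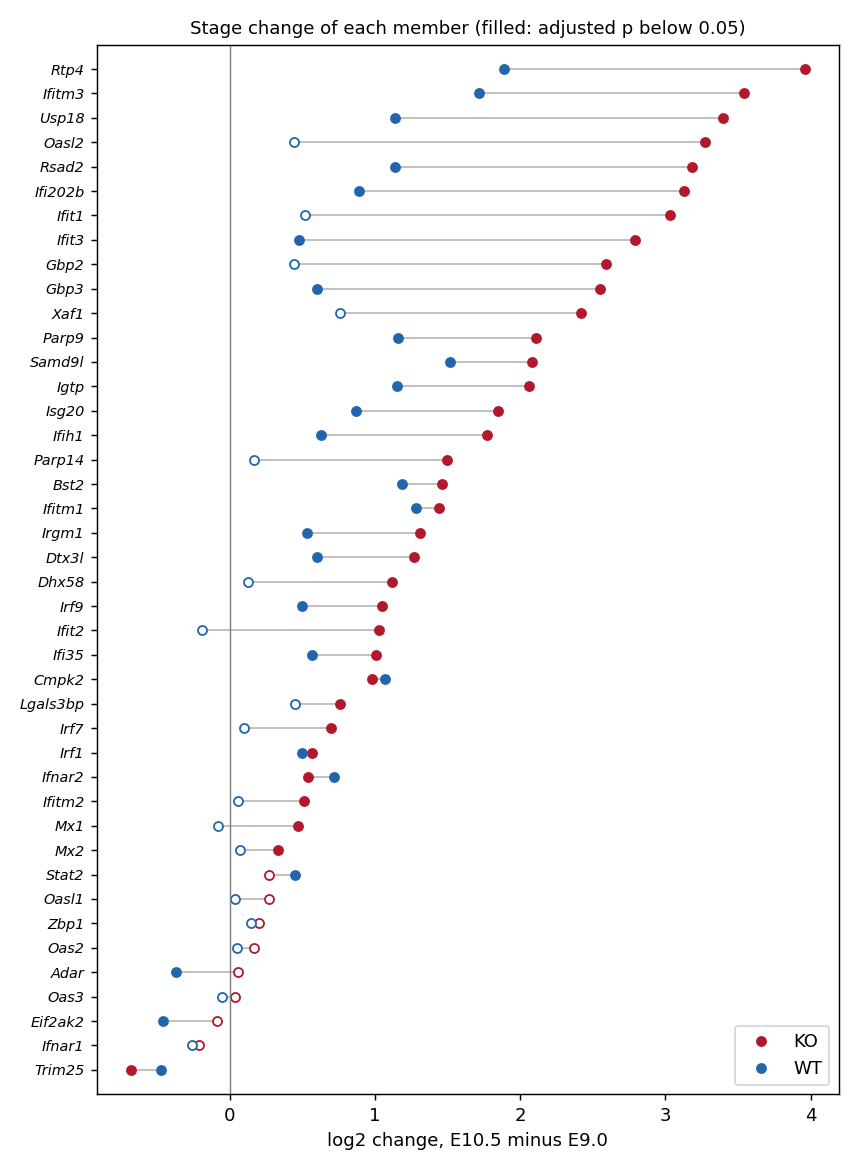
Log2 change from E9.0 to E10.5 (x axis) of each of the 42 measured members in the knockout (red) and the wild type (blue), ordered by the knockout value, with a line joining the genotypes; filled points have an adjusted p below 0.05. The knockout points reach 3.96 (Rtp4), the wild type points 1.89, and for Cmpk2, Ifnar2, Stat2 and Trim25 the wild type point lies to the right of the knockout point.

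Ligands, kinases, other sensors and adaptors of the pathway that are not members were read beside them. Of 46 such genes 40 were measured. At E10.5, 4 rose (10%, against 4.12% of all genes) and 1 fell (2.5%, against 3.16% of all genes), with a median log2 change of 0.03, and at E9.0 0 passed at the limma threshold. Tlr3, an endosomal receptor for double-stranded RNA, rose by 0.74 (adjusted p = 0.00217), Samhd1, a nucleotide hydrolase, by 0.45 (adjusted p = 0.0123), Pias1, an inhibitor of STAT proteins, by 0.42 (adjusted p = 0.0153) and Ddx58, which encodes RIG-I, by 0.39 (adjusted p = 0.0424). Mavs, the adaptor downstream of RIG-I and MDA5, fell by 0.51 (adjusted p = 0.0384). The kinase genes Jak1 and Tyk2 changed by 0.11 (adjusted p = 0.768) and 0.02 (adjusted p = 0.948). Ifnb1, the gene of interferon beta, averaged 4.10 in the knockout, against 4.17 in the wild type at E10.5, and 4.09 in the knockout, against 4.01 in the wild type at E9.0 (adjusted p = 0.849 at E10.5). These 4 means lie below the lower quartile of all genes.

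Other genes known to be induced by interferons moved mostly upward at E10.5. Of 65 such genes 53 were measured, 20 rose (37.7%, against 4.12% of all genes) and 4 fell (7.55%, against 3.16%), and the median log2 change was 0.16. The guanylate-binding protein genes Gbp7 and Gbp6 rose by 1.75 (adjusted p = 4.43e-05) and 1.39 (adjusted p = 0.00176), and the ADP-ribosyltransferase gene Parp12 by 1.44 (adjusted p = 4.37e-05). Cxcl10, a chemokine, rose by 1.14, Ifit1bl1, an IFIT family gene, by 1.31, Nmi by 1.03, and Ifi204, Tor3a, Irgm2, Rnf213 and Slfn2 by 0.75 to 0.90. The fallers were Plac8, by 0.86 (adjusted p = 0.000787), and, named after their values were seen, Ifi30, Trim14 and Ube2l6. At E9.0 Parp12 rose (1.05, adjusted p = 0.00217), and Ifi30, a lysosomal thiol reductase gene, and Plac8 fell (−1.10, adjusted p = 0.00207, and −0.92, adjusted p = 0.0031).

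**Figure D4:**
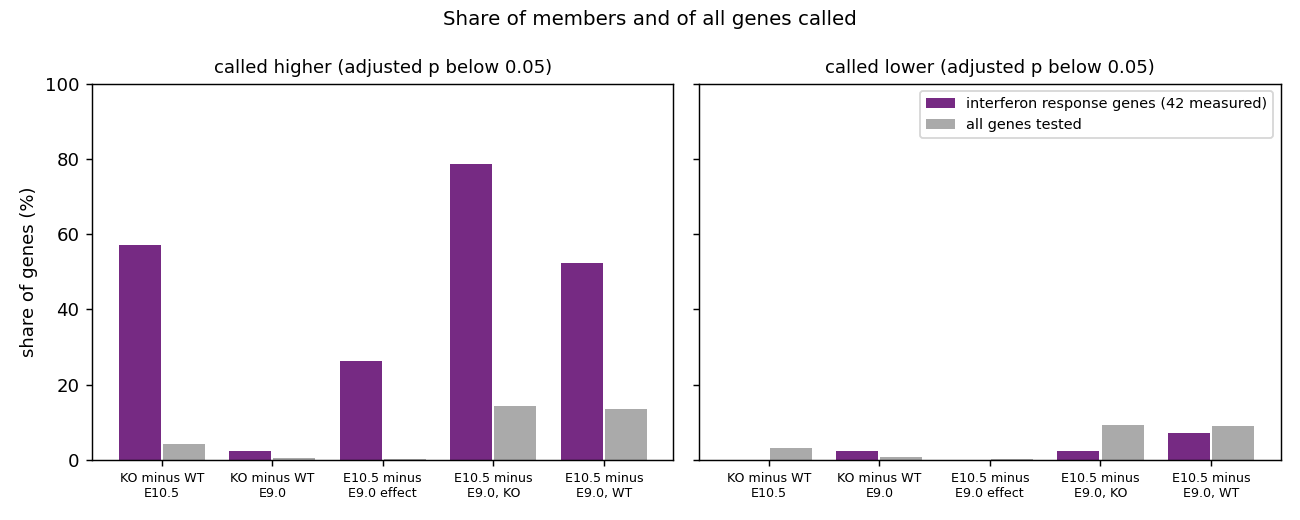
Share of the 42 measured interferon response genes (purple) and of all 18193 genes tested (grey) that were higher (left) or lower (right) at an adjusted p below 0.05 in each of the 5 comparisons (y axis, %). The share of members that were higher is 57.1% at E10.5 and 2.38% at E9.0 for knockout against wild type, while the shares that were lower stay at or below 7.14%.

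Markers of cells that can express these genes were read beside them. Of 20 macrophage and myeloid genes, 6 rose at E10.5 in the knockout (30%, against 4.12% of all genes) and 1 fell (5%, against 3.16%). The rises were Mpo by 1.56, Fcer1g by 1.38, Csf1r by 0.79, Cx3cr1 by 0.65, Tyrobp by 0.48 and Lyve1 by 0.47. Fcgr3 fell by 1.82. At E9.0 Cd68 and Fcer1g rose (10%, against 0.55% of all genes) and Tyrobp fell (5%, against 0.632%). The mean level of the 20 genes at E10.5 was 6.66 to 6.79 on knockout arrays and 6.52 to 6.65 on wild type arrays. At E9.0 it was 5.46 to 5.59 on knockout arrays and 5.58 to 5.63 on wild type arrays. Between the stages 16 of the 20 rose in the knockout (80%, against 14.4% of all genes). In the wild type 14 rose (70%, against 13.4%) and 1 fell (5%, against 8.86%). Of 11 measured genes of lymphocytes and plasmacytoid dendritic cells other than Bst2, 0 passed in limma's fit at E10.5 (log2 changes −0.23 to 0.05), with list means of 4.28 to 4.48 in the knockout and 4.41 to 4.54 in the wild type, near the lower quartile of all genes. The part of these cells in the members' changes was not tested.

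The defining genes of the labelled tissue were present. Visceral endoderm markers averaged 12.57 to 12.71 on knockout arrays and 12.78 to 12.89 on wild type arrays at E10.5, and 1 of 10 (Cubn) fell. Endothelial markers averaged 7.52 to 8.09 on knockout arrays and 7.18 to 7.51 on wild type arrays at E10.5, where 1 of 10 (Pecam1, by 0.86) rose, and mesenchymal markers 10.42 to 11.05 on knockout arrays and 10.25 to 10.42 on wild type arrays, where 3 of 9 (Vim, Acta2 and Tagln) rose. Markers of primitive red cells averaged 10.20 to 11.01 on knockout arrays and 10.99 to 11.12 on wild type arrays, and 1 of 7 (Epb42) fell. Over all genes, 4.12% rose and 3.16% fell at E10.5. Genes of decidua and trophoblast, maternal or placental tissue that dissection can carry over, averaged 4.71 to 5.92 in the knockout and 4.99 to 5.44 in the wild type at E10.5, and 0 of 7 passed. The part of these lists in the members' changes was not tested.

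The brightness of the members was read against all genes. Of the 42, 25 had a 12-array mean below that of the median gene (6.52) and 17 a mean above it. By definition as many genes lie below the median gene as above it. By 12-array mean, 7 members lay below the lower quartile of all genes (4.32). Of the 24 that rose at E10.5, 17 lay below the median gene, and differences between low RMA values understate fold changes. By group mean, the members below this quartile numbered 2 in the E10.5 knockout (Oas3 and Mx1) and 7 in the E10.5 wild type (Irf7, Dhx58, Oasl2, Oas3, Ifit1, Mx1 and Gbp2). There were 11 in each genotype at E9.0. Among genes above the median alone, 17 members were tested and 7 of them rose at E10.5.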

How the data were processed

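Total RNA of 12 samples was hybridised to Affymetrix mouse whole-genome arrays. The deposited log2 values were made by the authors with RMA, per the submitters' processing notes; raw scans were not used here. Of 45101 probe sets, 64 control probe sets were left out, 34945 had 1 gene symbol in the platform annotation, and for each of 18193 genes the one with the highest mean was kept. Group means were estimated for all genes together with limma 3.58.1 in R 4.3.3 (8 residual and 4.56 prior degrees of freedom), in 5 comparisons, each with Benjamini-Hochberg adjustment over all genes and a threshold of 0.05. The median standard error of a comparison of 2 groups was 0.126, and 3 arrays per group limit the precision. The samples are the replicates; nothing given here says that they came from separate litters, so p-values measure the spread between these samples. Arrays for single genes are given for members with a called log2 change of at least 1 at E10.5, those called at E9.0 or in the difference, and the receptor and factor genes; other members are given by range and examples by lowest p, and list genes that are not members if they passed in a knockout comparison (at most 12 a pathway list, by p). The members, the lists and this rule were chosen with earlier results of these data known. The alternatives were centring, quantile normalization, a filter on dim genes, means over probe sets, a trended and robust fit, blocks, 2 groups alone, leaving out arrays, a stricter threshold, and, added after seeing the data, a fit of every probe set. Promoters are RefSeq's, build GRCm38.p6.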

Additional observations from a re-analysis of the deposited data

Results flagged for a closer look

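The knockout effect differed between E10.5 and E9.0, by the interaction test in limma, for 11 interferon response genes. The E10.5 effect minus the E9.0 effect, on the log2 scale, was 2.83 for Oasl2, 2.51 for Ifit1, 2.31 for Ifit3, 2.26 for Usp18, 2.24 for Ifi202b, 2.15 for Gbp2, 2.07 for Rtp4, 2.04 for Rsad2, 1.96 for Gbp3, 1.82 for Ifitm3 and 1.33 for Parp14. Among the listed genes that are not members, it was 1.77 for Gbp7, 0.97 for Tlr3 and 1.09 for Tyrobp, the gene of a myeloid signalling adaptor. All 14 differences are positive, and Tyrobp fell at E9.0 (−0.61) and rose at E10.5 (0.48). Of the 11 members, only Oasl2, Ifit1, Ifit3, Ifi202b, Gbp3 and Usp18 kept the call in all 12 fits that leave out 1 array.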

How the results depend on the processing

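The count of 24 members past the threshold at E10.5 lay between 20 and 26 under each alternative but the restriction to genes above the median, where 17 members were tested and 7 rose. Centring, quantile normalization, both blocks, replicates 1 and 2 alone and leaving out knockout replicate 3 add Ifnar2 as 1 fall. The E9.0 count of 2 became 1 with centring on the median, quantile normalization, means over probe sets, the trended and robust fit or the probe set fit added after seeing the data, and 0 with the arrays of these 2 groups alone, with replicates 1 and 2 alone or at a threshold of 0.01; leaving out 1 array gave 0 to 2. The count of 11 for the difference became 0 among genes above the median, where 0 of all genes passed. Of the 11, only Rsad2 and Ifitm3 had a 12-array mean above the median gene, so the others were not tested there. The count became 5 with replicates 1 and 2 alone and 6 at a threshold of 0.01, and leaving out 1 array gave 6 to 13. Among genes above the median the stage counts became 15 for the knockout and 14 for the wild type, with 17 members tested. Apart from the tests that hold fewer genes or arrays, the cause was not tested.

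Same-numbered knockout and wild type arrays correlated in their deviations at 0.0341, 0.225 and 0.241 at E9.0 and at 0.255, 0.0667 and 0.401 at E10.5, and as not every value exceeded 0.1 the numbers were not taken as pairs. The third replicates, which the control probe sets set apart in both genotypes, gave the highest of these same-numbered values at each stage. At E9.0 knockout replicate 1 and wild type replicate 2 correlated slightly more, at 0.26. With the replicate number as a block, 25 members passed at E10.5 (1814 of all genes), 1 at E9.0 (349 of all genes) and 11 in the difference (115 of all genes). With the third replicates as a block, which adds Ifnar2 and Samd9l at E10.5, these counts were 26, 2 and 11 members and 2081, 476 and 91 of all genes, against 1325, 215 and 34 without a block. Over all alternatives the counts over all genes ran from 499 to 2081 at E10.5, from 31 to 476 at E9.0 and from 0 to 115 for the difference.

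Some small changes that did not pass the threshold turned their sign, for causes not tested. For knockout minus wild type at E9.0, replicates 1 and 2 alone gave 0.12 for Irf9, 0.05 for Rsad2, −0.005 for Ifi202b, 0.06 for Ifit1 and −0.01 for Ifnar1, quantile normalization gave 0.0007 for Irf9, and means over probe sets gave 0.12 for Rsad2. For the difference, replicates 1 and 2 alone gave 0.08 for Cmpk2 and −0.04 for Irf1, and means over probe sets gave 0.15 for Cmpk2 and 0.01 for Ifnar2. Leaving out 1 array gave ranges across 0: at E9.0 −0.11 to 0.11 for Irf9, −0.14 to 0.12 for Rsad2, −0.21 to 0.01 for Ifit1, −0.002 to 0.19 for Ifnar1, −0.32 to 0.04 for Rtp4, −0.03 to 0.31 for Usp18 and −0.07 to 0.26 for Parp9, at E10.5 −0.12 to 0.02 for Ifi35, and for the difference −0.29 to 0.02 for Cmpk2 and −0.09 to 0.15 for Ifnar1.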
